A study of Mus musculus with 4 samples.

Results

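Neutrophil granule and oxidase genes were followed in RNA-seq libraries of mouse blood-progenitor colonies. The set was given by name as 38 gene symbols, and 37 of them were among the 14323 genes listed. Of these, 35 matched by symbol, while Chi3l3 and Chi3l1 were found under their RefSeq symbols Chil3 and Chil1. Ly6g was not analysed here. The genes were ordered roughly by stage of neutrophil maturation, as 9 primary granule, 11 secondary granule and 12 late neutrophil genes. The 5 oxidase and redox genes, grouped by function and not by stage, were put last.

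Neutrophils arm themselves in sequence as they mature in the marrow. Promyelocytes pack myeloperoxidase and serine proteases into primary (azurophil) granules, myelocytes and metamyelocytes then fill secondary (specific) and tertiary granules with lactoferrin, cathelicidin and related proteins, and the last stages load the cytosol with S100 proteins and stefins and put chemokine receptors on the surface. The NADPH oxidase is assembled from membrane and cytosolic subunits when the cell is activated, and makes superoxide inside the phagosome. The messenger RNAs of the successive granule sets are made in turn, so their relative levels are commonly read as a record of stage.

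The colonies grew from 100 cells, either short-term haematopoietic stem cells (ST-HSCs), which can give rise to every blood lineage but not lastingly, or MPP2 cells, multipotent progenitors biased to megakaryocytes and erythrocytes. All were of the C57BL/6 strain and spent 5 to 7 days in 1% methylcellulose with SCF (25 ng/ml) and IL-6, IL-3 and GM-CSF (10 ng/ml each). Cultures held 0.05 µM 4-hydroxytamoxifen (4OHT), the active form of tamoxifen, labelled as conditionally expressing the leukaemia fusion MLL-ENL, or as much of its solvent ethanol, labelled control. Each of the 4 combinations had 1 library. The labels do not name the promoter or recombinase behind the induction, and no 4OHT culture without the fusion was used here, so effects of 4OHT itself and of MLL-ENL cannot be told apart.

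Depth was 12907412 to 14317891 reads per library, and levels are given as normalized counts, with 1 read worth 0.0695 to 0.0802 of them. The induction could not be checked: the fusion joins parts of Kmt2a and Mllt1, which stood at 72.1 to 91.1 and 50.9 to 62.7 normalized counts, and counts per symbol do not set it apart from them. The RNA was from grown colonies, not from the cells first plated: Kit was at 76.4 to 92.9 in all 4 libraries, while Slamf1, a surface marker used to define MPP2 cells, had 0 reads in both ST-HSC libraries and 3.17 and 2.49 normalized counts in the MPP2 libraries. Of the listed genes 11370 had a mean of at least 1 normalized count and were tested, all 37 granule and oxidase genes among them. Differences were taken on log2(normalized count + 0.5). In these bulk samples, fewer cells of a type and less RNA per cell cannot be told apart.

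**Figure D1:**
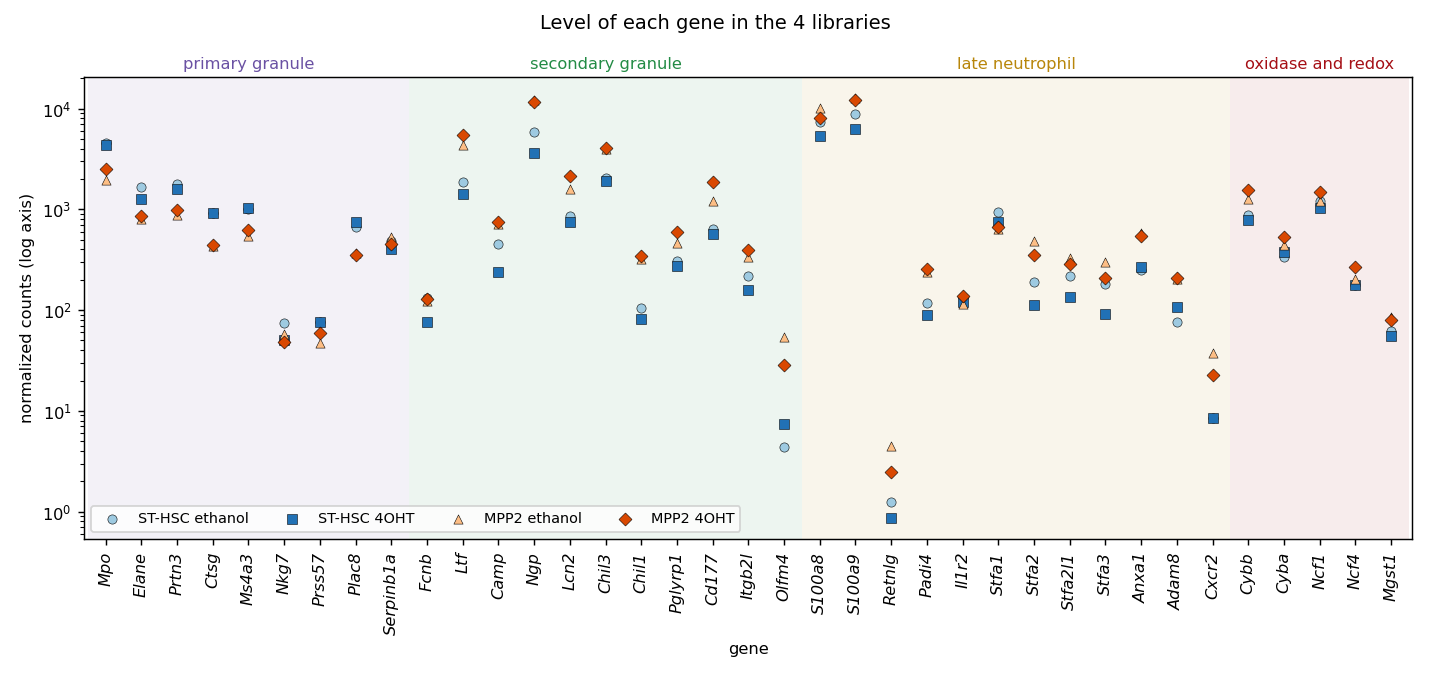
Normalized counts (log axis) of the 37 genes, with 1 point per library. The order is primary granule, secondary granule, late neutrophil, then oxidase and redox genes. Circles and squares are ST-HSC colonies with ethanol and 4OHT, triangles and diamonds MPP2 colonies with ethanol and 4OHT. Among primary granule genes such as Mpo the ST-HSC points lie above the MPP2 points, and among secondary granule genes such as Ltf the MPP2 points lie above.

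The set made up 4.49% and 3.59% of all normalized counts in ST-HSC colonies with ethanol and with 4OHT, and 6.05% and 5.86% in MPP2 colonies. By mean level 7 of the genes ranked among the top 50 in the table. Per kilobase of exon the most abundant was S100a9, at a mean of 19275 normalized counts per kb, followed by S100a8 at 11073 and Ngp at 6788. Next came Chil3 at 1832 and Elane at 1168 per kb. At the low end were Olfm4 (7.91 per kb), Cxcr2 (6.35) and Retnlg (3.83), the last with 0.862 to 4.47 normalized counts in the 4 libraries.

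The main pattern was a split by gene group between the colonies of the 2 cell types. The stage of the cells was not measured. Of the 9 primary granule genes 6 were lower in MPP2 than in ST-HSC colonies and 0 higher (limma, adjusted p under 0.05, cell type term of an additive fit with treatment). Of the 11 secondary granule genes 10 were higher and 0 lower, of the 12 late neutrophil genes 9 were higher and 0 lower, and of the 5 oxidase and redox genes 1 was higher. Over the whole set 20 of 37 were higher and 6 lower, while 9.88% of all tested genes were higher and 5.31% lower. The background depends on the filter. With a filter at a mean of at least 5, 22 of 36 members were higher and 7 lower. Of all 9520 genes then tested, 1324 were higher and 1395 lower. The median log2 difference was -0.82 for primary granule, 1.21 for secondary granule, 1.04 for late neutrophil and 0.43 for oxidase and redox genes, against -0.02 for all tested genes.

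Precision of that test is low. The fit has 3 coefficients over 4 libraries, so its only measure of spread is how far the ethanol pair and the 4OHT pair of libraries differ, borrowed across genes. Nothing in the labels says whether the colonies of a cell type came from more than 1 sort or animal, and the p-values cover the spread between these libraries alone. Of the 26 calls, 11 held under every alternative setting, and the count of genes called ranged from 9 to 24 higher and from 2 to 8 lower.

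**Figure D2:**
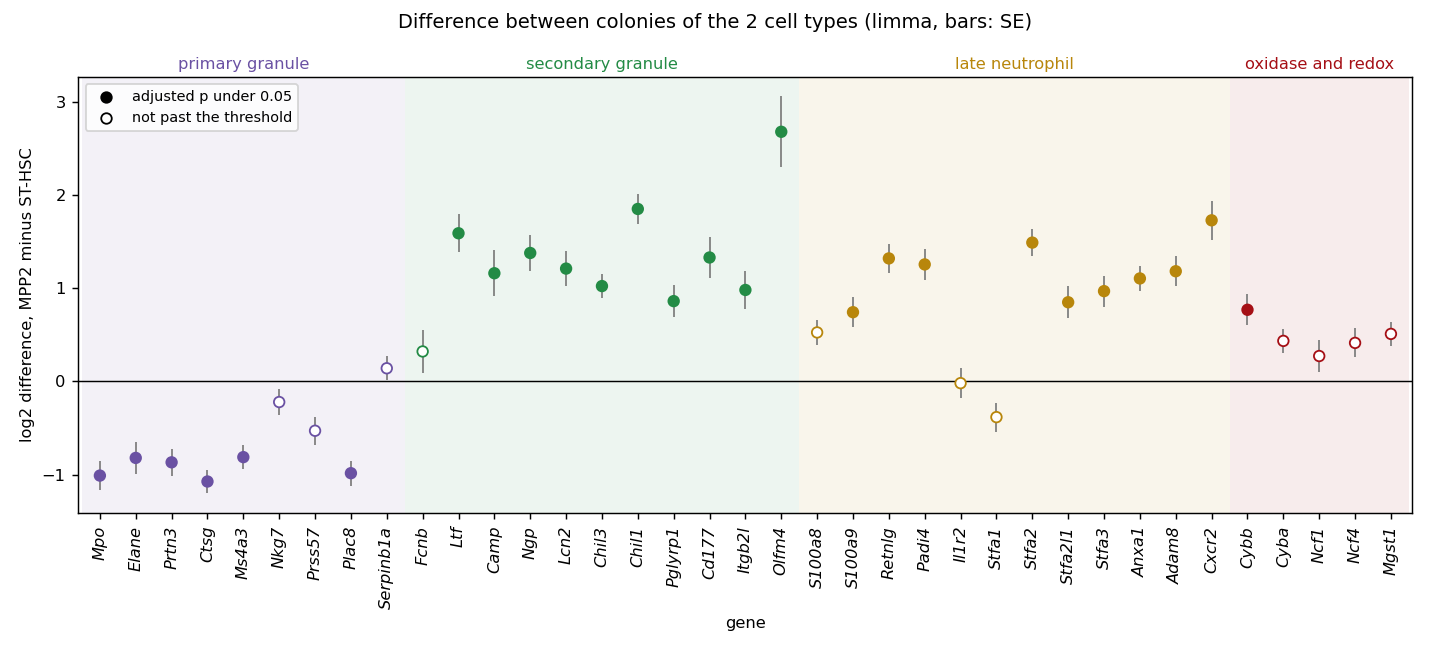
Log2 difference of MPP2 minus ST-HSC colonies for each gene from the limma fit over the 4 libraries, with bars for the SE. Filled points have an adjusted p under 0.05, and open points do not. Primary granule genes lie below 0 except Serpinb1a, and all 11 secondary granule genes lie above 0.

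The same split stood within each treatment. Between the ethanol libraries, 4 primary granule genes were at least 2-fold lower in MPP2 colonies, while 4 secondary granule and 6 late genes were at least 2-fold higher (0.862% of all tested genes were 2-fold lower and 6.27% higher). Between the 4OHT libraries, 2 primary granule genes were at least 2-fold lower, and 10 secondary granule, 7 late and 1 oxidase gene at least 2-fold higher (1.71% of tested genes lower and 5.39% higher). Each of these comparisons has 1 library a side and no replicate check. Both MPP2 libraries lay above both ST-HSC libraries for 24 of 37 genes and below them for 8, as they did for 28.8% and 33.7% of all tested genes. The 24 were 10 secondary granule, 10 late and 4 oxidase and redox genes, and the 8 were 7 primary granule genes and 1 late gene, Stfa1. With 2 libraries a side such separation is common, so for a single gene it says little by itself.

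Mpo encodes myeloperoxidase, the haem enzyme that makes hypochlorous acid in the phagosome. It had 4549 normalized counts in ST-HSC colonies with ethanol and 4357 with 4OHT, and 1971 and 2484 in MPP2 colonies. Both ST-HSC values lay above both MPP2 values, and the fitted level was 2.01-fold lower in MPP2 colonies (log2 -1.01, SE 0.15, limma adjusted p = 0.0251). Ctsg encodes cathepsin G, a chymotrypsin-like granule protease. In the same order of libraries it stood at 912, 917, 432 and 438. Its difference was almost the same with ethanol and with 4OHT, log2 -1.08 and -1.07 (fitted 2.10-fold lower, limma adjusted p = 0.0149).

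Elane and Prtn3 encode neutrophil elastase and proteinase 3. They lie side by side on chromosome 10 with 3072 bases between them (GENCODE M21, GRCm38), and Prss57, a related granule protease, lies 83.5 kb from Prtn3. Elane had 1673 and 1272 normalized counts in ST-HSC colonies with ethanol and 4OHT, and 794 and 861 in MPP2 colonies. Prtn3 had 1798, 1604, 876 and 989.5 in that order. For either gene the lowest ST-HSC value was above the highest MPP2 value, with fitted levels 1.76-fold and 1.82-fold lower in MPP2 colonies (limma adjusted p = 0.0420 and 0.0298). Prss57 had 76.6, 76.0, 46.7 and 59.6, and its log2 difference of -0.53 (SE 0.15) did not pass the test (limma adjusted p = 0.0742).

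Ms4a3, a membrane protein of granulocyte-monocyte progenitors, had 996 and 1034 normalized counts in ST-HSC colonies and 538 and 622 in MPP2 colonies with ethanol and 4OHT (limma adjusted p = 0.0276). Plac8, a small cysteine-rich protein of myeloid precursors, had 674 and 750.4 against 367 and 352 (adjusted p = 0.0204). In these too the ST-HSC and MPP2 values did not overlap. Nkg7, a granule membrane protein shared with cytotoxic lymphocytes, had 74.4, 50.1, 57.3 and 47.8, and Serpinb1a, a cytosolic inhibitor of elastase and related proteases, had 483, 407, 528 and 453. Neither passed the test (limma adjusted p = 0.311 and 0.450), and 10.1% of the 31-base words in Serpinb1a transcripts also occur in other genes, mainly Serpinb1b and Serpinb1c.

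Promoter sequence is shown for genes that differed together between the cell types, so that the letters they share can be seen. It is taken from RefSeq (GRCm38.p6), ends before the first base that GENCODE M21 has as transcribed, and is given 5′ to 3′ on the gene's strand. Of the 37 genes 34 had an entry, and Prss57, Serpinb1a and Ncf4 had none. The 250 bases before the RefSeq start were searched on both strands. Counts of promoters with a match refer to all 250 bases, also where the sequence as cut is shorter. The PU.1 core was spelled GAGGAAG and the RUNX core TGTGGT. The C/EBP site was spelled TTGCNNAA, and the GATA site AGATAAG. The Elane (chr10:79886062-79886246, plus strand) and Ctsg (chr14:56102575-56102824, minus strand) promoters are examples from the primary granule genes that were lower in MPP2 colonies. Both are among the 4 of 7 primary granule promoters that held GAGGAAG. Capitals mark the PU.1 core in both and, in Ctsg, also a RUNX core read on the other strand. No matches shown here overlap.
Elane: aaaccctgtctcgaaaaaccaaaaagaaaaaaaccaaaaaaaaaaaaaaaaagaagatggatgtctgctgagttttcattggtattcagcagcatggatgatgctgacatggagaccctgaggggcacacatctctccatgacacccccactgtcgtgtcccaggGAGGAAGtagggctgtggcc
Ctsg: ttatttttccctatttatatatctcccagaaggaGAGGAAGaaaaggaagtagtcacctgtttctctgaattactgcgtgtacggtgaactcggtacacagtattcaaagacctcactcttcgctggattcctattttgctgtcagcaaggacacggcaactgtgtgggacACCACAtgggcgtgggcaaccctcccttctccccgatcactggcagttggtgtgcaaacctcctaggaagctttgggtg

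Of the 7 primary granule promoters found, 4 held GAGGAAG and 0 held TTGCNNAA, while 10.4% and 9.55% of all 27025 promoters held them. A match is only a run of letters and says nothing of whether a factor binds there.

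Secondary granule genes were ordered the other way round. Ltf encodes lactoferrin, the iron-binding protein that defines the specific granule. It had 1856 and 1432 normalized counts in ST-HSC colonies with ethanol and 4OHT, and 4355 and 5521 in MPP2 colonies, with no overlap. The fitted level was 3.01-fold higher in MPP2 colonies (log2 1.59, SE 0.20, limma adjusted p = 0.0180). Set against Mpo in the same library, Ltf stood at 0.408 and 0.329 of the Mpo normalized count in ST-HSC colonies, and at 2.21 and 2.22 times it in MPP2 colonies.

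Ngp, neutrophilic granule protein, and Camp, the cathelicidin precursor of an antimicrobial peptide, lie with Ltf along chromosome 9, Camp 570 kb from Ngp and Ngp 596 kb from Ltf. Ngp had 5839 and 3581 normalized counts in ST-HSC colonies and 12044 and 11717 in MPP2 colonies, a 2.60-fold higher fitted level (limma adjusted p = 0.0217). Camp had 449.6 and 240.4 against 723 and 748, a 2.23-fold higher level (adjusted p = 0.0439). In each the highest ST-HSC value was under the lowest MPP2 value.

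The Ltf (chr9:111019042-111019270, plus strand) and Ngp (chr9:110419558-110419746, plus strand) promoters stand for this group. Capitals mark TTGCNNAA, which in Ltf lies on the other strand.
Ltf: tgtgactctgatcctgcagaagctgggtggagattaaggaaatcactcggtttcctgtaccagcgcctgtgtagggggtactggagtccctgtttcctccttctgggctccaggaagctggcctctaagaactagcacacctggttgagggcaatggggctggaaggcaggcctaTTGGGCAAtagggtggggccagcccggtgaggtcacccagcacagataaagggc
Ngp: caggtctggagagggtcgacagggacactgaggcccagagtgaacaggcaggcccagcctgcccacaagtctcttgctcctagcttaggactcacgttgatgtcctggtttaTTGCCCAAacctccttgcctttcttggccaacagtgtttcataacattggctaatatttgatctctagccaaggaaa

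Of the 11 secondary granule promoters 4 held TTGCNNAA and 4 GAGGAAG. In the late group 5 of 12 held TTGCNNAA, and in the oxidase group 1 of 4 promoters found. GAGGAAG was in 2 of 12 late and 0 of 4 oxidase promoters. Some of these matches lie past the end of the cut sequence, the 1 in the oxidase group among them.

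Lcn2 encodes lipocalin 2, which binds bacterial iron carriers, and had 853 and 742 normalized counts in ST-HSC colonies and 1587 and 2136 in MPP2 colonies with ethanol and 4OHT. Cd177, a neutrophil surface protein, had 643 and 563 against 1214 and 1885. The fitted levels were 2.31-fold and 2.51-fold higher in MPP2 colonies (limma adjusted p = 0.0259 and 0.0294). Pglyrp1, a peptidoglycan recognition protein of the granules, had 307 and 275 against 466 and 599.5 (adjusted p = 0.0390). Itgb2l, a beta integrin-like protein, had 219.5 and 157 against 337 and 398 (adjusted p = 0.0424). In each of these 4 genes the MPP2 values were the higher pair.

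The chitinase-like genes Chil3 and Chil1 have lost chitinase activity and are secreted by myeloid cells. Chil3 (Ym1) had 2056 and 1890.3 normalized counts in ST-HSC colonies and 3965 and 4046 in MPP2 colonies. Chil1 had 104 and 81.4 against 325 and 342, the largest called fold of the secondary group after Olfm4, at 3.60 (limma adjusted p = 0.00705, and 0.0179 for Chil3). Chil3 shares 41.5% of its 31-base words with other genes, most with Chil4, which itself had 0 to 3 reads per library. Olfm4, olfactomedin 4, marks a subset of neutrophils, and had 4.38 and 7.33 in ST-HSC colonies and 53.7 and 28.3 in MPP2 colonies. Its fitted level was 6.39-fold higher (adjusted p = 0.0217), with an SE of 0.38 on the log2 scale, the widest of the set.

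Fcnb, ficolin B, a lectin made early in the granule sequence, was the exception among the secondary genes. It had 132 normalized counts in ST-HSC colonies with ethanol, 75.7 with 4OHT, and 122 and 129 in MPP2 colonies. The ST-HSC ethanol library was the highest of the 4 and the ST-HSC 4OHT library the lowest, so the cell types overlapped (log2 0.32, SE 0.23, limma adjusted p = 0.358).

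**Figure D3:**
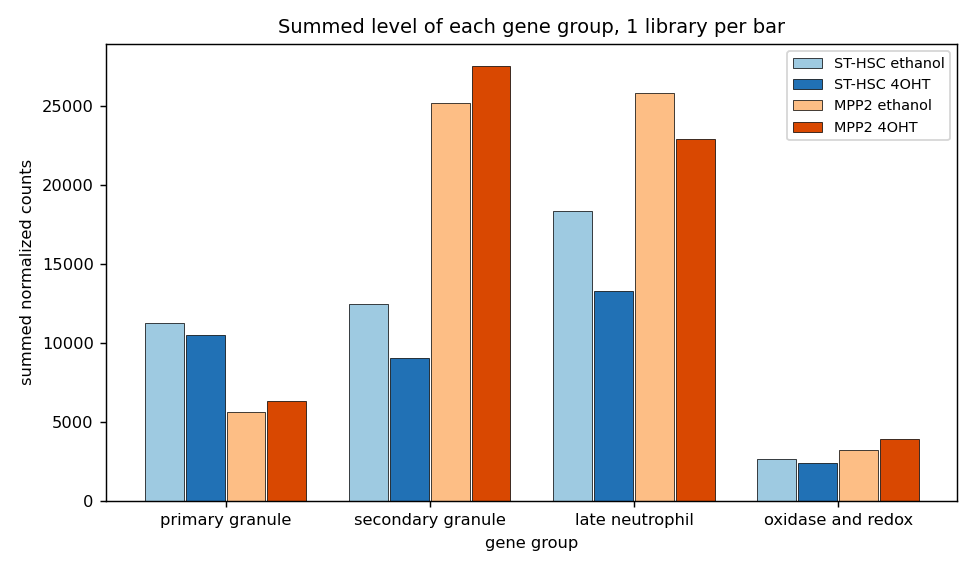
Summed normalized counts of each gene group, with 1 bar per library and no error, since each combination has 1 library. The 2 ST-HSC bars are the taller pair for primary granule genes and the shorter pair for secondary granule and late neutrophil genes.

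Summed over its genes, the primary granule group reached 11236 and 10467 normalized counts in ST-HSC colonies and 5610.1 and 6306 in MPP2 colonies. Secondary granule genes summed to 12463 and 9046, and to 25193 and 27549. The secondary sum was 1.11 and 0.864 times the primary sum in ST-HSC colonies with ethanol and 4OHT, and 4.49 and 4.37 times it in MPP2 colonies. Such sums lean on a few abundant genes: Mpo gave 35.1% to 41.6% of the primary sum and Ngp 39.6% to 47.8% of the secondary sum.

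Among late neutrophil genes, the S100 pair encodes calprotectin, the calcium-binding complex that fills the neutrophil cytosol. S100a8 and S100a9 lie 22.6 kb apart on chromosome 3. S100a9 had 8873 and 6315 normalized counts in ST-HSC colonies and 12801 and 12257 in MPP2 colonies, 1.67-fold higher in the fit (limma adjusted p = 0.0439). S100a8 had 7343 and 5304 against 10103 and 7989. Its values did not overlap either, but the difference of log2 0.53 (SE 0.13) did not pass (adjusted p = 0.0564).

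Cxcr2, the receptor for neutrophil-drawing CXC chemokines, had 8.48 normalized counts in both ST-HSC libraries and 37.9 and 22.5 in MPP2 colonies (3.31-fold higher, limma adjusted p = 0.0158). Padi4, which citrullinates histones when neutrophils release their chromatin, had 118 and 90.3 against 240.1 and 255 (adjusted p = 0.0189). Anxa1, annexin A1, an anti-inflammatory protein stored in neutrophils, had 252 and 269.7 against 576 and 547, and Adam8, a surface metalloproteinase of neutrophils, had 76.9 and 107 against 203 and 210.4 (adjusted p = 0.0154 and 0.0193). Retnlg, a resistin-like secreted protein of mature neutrophils, had 1.25 and 0.862 against 4.47 and 2.49 (adjusted p = 0.0141), on 123 reads over all 4 libraries. In each of these 5 genes the MPP2 values were the higher pair. Il1r2, the decoy receptor for interleukin 1, did not follow them, at 136, 119.7, 115 and 139 in the usual order (adjusted p = 0.946).

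The stefin A genes encode small cysteine protease inhibitors and lie in a cluster on chromosome 16. Stfa2 had 191 and 113 normalized counts in ST-HSC colonies with ethanol and 4OHT and 485 and 352 in MPP2 colonies. Stfa3 had 180.3 and 90.7 against 299 and 210.1, and Stfa2l1 217 and 133 against 328 and 287. These 3 genes were 2.81-fold, 1.96-fold and 1.80-fold higher in MPP2 colonies in the fit (limma adjusted p = 0.00895, 0.0300 and 0.0396). Stfa1 ran the other way, at 948 and 747 against 631 and 661, with log2 -0.38 (adjusted p = 0.146).

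Reads of these copies are hard to assign. Stfa1 shares 39.0% of its 31-base words with BC100530, a neighbouring stefin A-like gene, Stfa2 shares 25.9% with Stfa2l1, and Stfa2l1 shares 29.3% with Stfa2, so their separate values are uncertain. Stfa3 shares 0%. BC100530 itself had 2200 and 1294 normalized counts in ST-HSC colonies and 2439 and 1977 in MPP2 colonies. The promoters are alike too: over 250 bases, Stfa2 and Stfa2l1 are 89.4% identical after alignment, and the other pairs of the 4 genes 80.2% to 83.1%. The Stfa2l1 (chr16:36156561-36156810, plus strand) and Stfa3 (chr16:36455393-36455642, minus strand) promoters show how close they are. Capitals mark the RUNX core on the other strand, which all 4 stefin promoters hold at nearly the same place, and the GATA site in Stfa3.
Stfa2l1: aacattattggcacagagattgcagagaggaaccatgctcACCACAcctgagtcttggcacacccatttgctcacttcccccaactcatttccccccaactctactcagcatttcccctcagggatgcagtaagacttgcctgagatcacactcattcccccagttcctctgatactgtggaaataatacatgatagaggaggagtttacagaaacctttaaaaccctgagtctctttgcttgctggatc
Stfa3: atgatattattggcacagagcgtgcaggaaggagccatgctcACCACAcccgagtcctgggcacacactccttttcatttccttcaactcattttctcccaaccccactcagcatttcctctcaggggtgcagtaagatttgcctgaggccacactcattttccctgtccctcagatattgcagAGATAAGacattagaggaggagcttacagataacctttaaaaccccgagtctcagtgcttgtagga

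TGTGGT on either strand was in 5 of 12 late neutrophil promoters, 4 of them the stefins, and in 14.2% of all promoters. It was also in 3 of 7 primary granule, 0 of 11 secondary granule and 1 of 4 oxidase promoters.

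Oxidase genes differed less between the cell types. Cybb encodes gp91phox, the haem-bearing catalytic subunit in the membrane, and had 879 and 775 normalized counts in ST-HSC colonies and 1264 and 1564 in MPP2 colonies. Its level was 1.70-fold higher in the fit (limma adjusted p = 0.0453). Cyba, its membrane partner p22phox, had 339 and 377 against 439 and 533 (adjusted p = 0.0813). Ncf1, the cytosolic organizer p47phox, had 1203 and 1021 against 1202 and 1492, and Ncf4, the lipid-binding subunit p40phox, 177 and 176 against 205 and 269. Neither Ncf1 nor Ncf4 passed (adjusted p = 0.306 and 0.123). Mgst1, a microsomal glutathione transferase of early neutrophil precursors, had 61.5 and 54.8 against 85.9 and 79.9 (adjusted p = 0.0575). With edgeR on recovered reads 4 of the 5 were called higher, where 16.5% of all tested genes were higher and 14.0% lower.

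Of 8 oxidase partners outside the set, 0 passed the cell type test with limma (9.88% of all tested genes were higher and 5.31% lower). At an unadjusted p under 0.05 there were 2 of the 8, and 4285 of all 11370 tested genes. With edgeR 3 were higher (16.5% of all tested genes). Rac2, the GTPase that completes the active oxidase, had 632, 617, 807 and 959 normalized counts in the usual order, and Hvcn1, the proton channel that balances its charge, 304, 314, 311.5 and 407.

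The 4OHT comparison gave smaller differences. In ST-HSC colonies 0 of 37 genes reached 2-fold in either direction (2.65% of all tested genes did), and in MPP2 colonies likewise 0 (3.02%). An effect common to the cell types was called for 0 of the 37 with limma at an adjusted p under 0.05, where 0.0528% of all tested genes were called. At an unadjusted p under 0.05 there were 6 of the 37, and 14.2% of all tested genes, so the share of the whole set was near the background. The groups were uneven: 5 of the 12 late neutrophil and 1 of the 9 primary granule genes, and 0 in the secondary granule and oxidase groups. The 5 late genes were S100a8, Retnlg and 3 stefins of 1 cluster, Stfa2, Stfa2l1 and Stfa3. Stfa2 and Stfa2l1 share sequence, so their values are not fully separate. With edgeR on recovered reads 2 of the 37 were called, both lower, against 1.86% of tested genes lower.

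Those 2 genes were stefins. Stfa3 went from 180.3 to 90.7 normalized counts in ST-HSC colonies, a ratio of 0.503 (95% counting interval 0.470 to 0.538), and from 299 to 210.1 in MPP2 colonies, a ratio of 0.702 (0.668 to 0.738). Stfa2 went from 191 to 113 (ratio 0.591, 0.556 to 0.630) and from 485 to 352 (ratio 0.726, 0.699 to 0.755). The limma adjusted p was 0.171 and 0.184, and the edgeR adjusted p was 0.00910 and 0.0153. Counting intervals cover the sampling of reads alone, not differences between cultures.

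In ST-HSC colonies most of the set lay lower with 4OHT: 30 of 37 genes were below 0 in log2 difference, where 50.6% of all tested genes were. By group these were 6 of 9 primary granule, 10 of 11 secondary granule, 10 of 12 late and 4 of 5 oxidase and redox genes. The medians were -0.06, -0.35, -0.38 and -0.17, against -0.004 for all tested genes. Camp had the largest difference of the secondary group at -0.90, followed by Fcnb at -0.80 and Ngp at -0.71. Elane stood at -0.40 while Ctsg and Mpo were at 0.01 and -0.06, and Prtn3 lay between them at -0.17. Above 0 were Olfm4 at 0.68, Adam8 at 0.48, Plac8 at 0.16, Cyba at 0.15, Anxa1 at 0.10, Ms4a3 at 0.05 and Ctsg.

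In MPP2 colonies the set was mixed, with 23 of 37 above 0 (49.7% of all tested genes were). Secondary granule genes had 9 of 11 above 0 and a median of 0.08, and oxidase and redox genes 4 of 5 and 0.31. Late genes had 4 of 12 above 0 and a median of -0.13. Cd177 stood at 0.63, Lcn2 at 0.43, Pglyrp1 at 0.36 and Ltf at 0.34. Ncf4, Ncf1 and Cybb lay close together at 0.39, 0.31 and 0.31. Furthest below 0 were Olfm4 at -0.91, Retnlg and Cxcr2, both at -0.74, and Stfa3 at -0.51. When levels were scaled to library totals alone, 19 of 37 were above 0 and 7 of 11 secondary genes, and with the trend with GC content removed, 19 and 6.

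**Figure D4:**
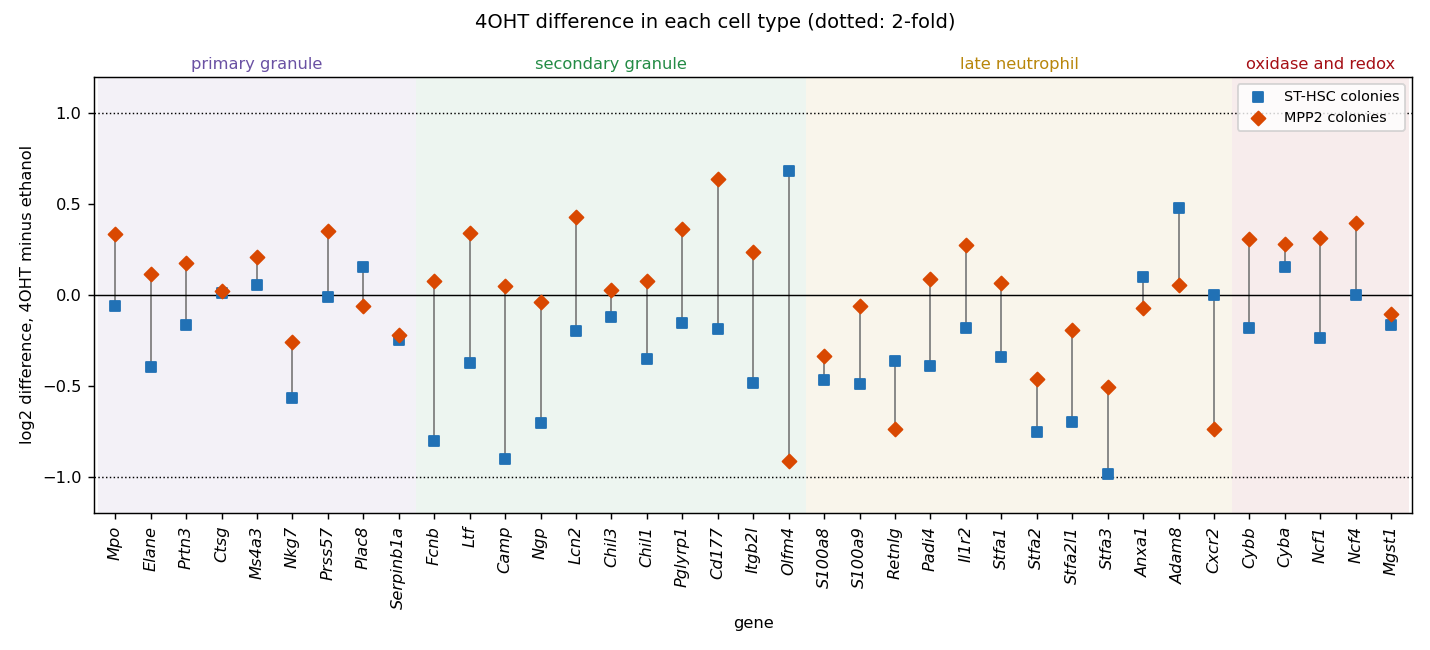
Log2 difference of 4OHT minus ethanol for each gene in ST-HSC colonies (squares) and MPP2 colonies (diamonds), 1 library on each side of each difference. Dotted lines mark 2-fold, which no gene passes. Most squares lie below their diamonds, with Olfm4, Cxcr2, Adam8, Retnlg, Plac8 and Anxa1 the other way.

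The log2 4OHT difference was greater in MPP2 than in ST-HSC colonies for 31 of 37 genes, where it was for 48.3% of all tested genes. Among the 31 were 10 of 11 secondary granule and 5 of 5 oxidase and redox genes. With 1 library per combination this difference of differences has no test, and the comparisons within each cell type and within each treatment use the same 4 libraries. For 19 of 37 genes the counting intervals of the 4OHT to ethanol ratio lay on opposite sides of 1 in the cell types, as they did for 5.36% of all tested genes. In 16 of the 19 the ratio was below 1 in ST-HSC colonies and above 1 in MPP2 colonies. Genes with many reads meet this rule more easily, and 7 of the set ranked in the top 50. The 5.36% is therefore not a like background. Some of the 16 had small MPP2 differences, such as log2 0.03 for Chil3 and 0.05 for Camp, and others larger, such as 0.63 for Cd177. These counts were not repeated under other scalings.

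Of 10 granulocyte transcription factors measured, 1 was higher in MPP2 colonies (Klf5) and 1 lower (Myb) in the limma fit (9.88% and 5.31% of all tested genes). With edgeR 1 was higher and 3 lower (16.5% and 14.0%), the added genes being Cebpa and Gfi1, named after their values were seen. Gfi1, a repressor needed for granulocyte maturation, had 153 and 129 normalized counts in ST-HSC colonies and 74.2 and 114 in MPP2 colonies (edgeR adjusted p = 0.0212, limma 0.130). For the shared 4OHT effect 0 of the 10 were called with limma (0.0528% of all tested genes). There were 0 at an unadjusted p under 0.05 (14.2%), and 0 with edgeR (281 higher and 211 lower of all 11370). Spi1, which encodes PU.1, had 319.9, 328, 312 and 378 normalized counts, and Cebpb 247, 279, 218 and 293. Myb, a factor of immature progenitors, had 201 and 188 in ST-HSC colonies and 131 and 104 in MPP2 colonies (adjusted p = 0.0356), and Klf5 had 23.3 and 17.2 against 39.4 and 37.0 (adjusted p = 0.0275).

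Other granule proteins and their processing enzymes had 5 of 17 measured genes higher in MPP2 colonies and 0 lower with limma (9.88% and 5.31% of all tested genes), and 8 higher and 1 lower with edgeR (16.5% and 14.0%). Lyz2, the lysozyme of granules and macrophages, had 1113 and 1924 normalized counts in ST-HSC colonies with ethanol and 4OHT and 1692 and 2768 in MPP2 colonies, higher with 4OHT in both. Lyz1 had 63.4 and 107.7, and 93.2 and 155, and Hp, haptoglobin, had 327 and 413, and 228 and 507. Srgn, serglycin, the proteoglycan that packs granules, had 538 and 456, and 535 and 336. None of the 17 was called for the shared 4OHT effect with limma (0.0528% of all tested genes were). At an unadjusted p under 0.05 there were 7 of the 17, and 14.2% of all tested genes. With edgeR 4 were higher and 0 lower, where 281 and 211 of all 11370 tested genes were.

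Neutrophil receptors and adhesion genes had 10 of 19 higher in MPP2 colonies with limma (9.88% of all tested genes) and 13 with edgeR (16.5%). Itgam and Itgb2, the chains of the integrin Mac-1, had 588 and 550.3 against 1059 and 1201, and 637 and 602 against 976 and 1220.5. Fpr2, a formyl peptide receptor, had 6.26 and 12.8 against 20.4 and 28.0, and Clec4d, a C-type lectin receptor, 19.6 and 48.6 against 63.6 and 89.2.

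Markers of other cells moved with the same comparisons. The 13 mast cell and basophil markers summed to 241 and 181.4 normalized counts in ST-HSC colonies with ethanol and 4OHT. Their sums in MPP2 colonies were 1890.1 and 677. Of the 12 tested, 11 were higher in MPP2 colonies with limma (9.88% of all tested genes) and 11 with edgeR (16.5%). The 12 erythroid and megakaryocyte markers summed to 23.6 and 28.0, and to 469 and 362, with Hba-a2, Hbb-b1 and Slc4a1 at 0 reads in both ST-HSC libraries. The 9 eosinophil markers summed to 39.8 and 40.9, and to 286 and 153. The 14 monocyte and macrophage markers summed to 1857 and 2619, and to 2215 and 3274, with the higher sum under 4OHT in both cell types. By mean level Ly6c2 and Lgals3 led that list, but the log2 4OHT difference of Ly6c2 was 0.09 in ST-HSC and 0.16 in MPP2 colonies. That of Gpnmb, named after its values were seen, was 2.17 and 1.59. The 7 measured dendritic cell markers summed to 169 and 259, and to 83.2 and 184. The part of these cells in the differences of the granule genes was not tested.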

How the data were processed

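Per the labels' protocols, total RNA of colony cells was rRNA-depleted and made into strand-specific libraries from 200 ng. The tools named in the submitters' processing notes are edgeR, RSEM, Bowtie2 and Trimmomatic 0.36, with the build mm10; what each did, and with which annotation, is not given in the sources used here. The deposited signal is 1 normalized value per gene symbol and library. All values were whole multiples of a step per column (tolerance 0.001 reads), so whole reads were recovered; the steps match TMM scaling.

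Members and lists were chosen with earlier results of these data known. Genes with a mean of at least 1 were fitted with limma on log2(value + 0.5), additive in cell type and treatment, with Benjamini-Hochberg adjustment over 11370 genes and a threshold of 0.05. Within a pair of libraries, 2-fold differences are descriptions, with exact conditional binomial 95% counting intervals. All members were named. Of other lists, some of the genes with the largest weaker 4OHT difference or the highest level were named. Cebpa, Gfi1, Gpnmb, Hba-a2, Hbb-b1 and Slc4a1 were named outside that rule. The result of 1 gene among the receptors is not reported here. Lengths and 31-base words come from GENCODE M21 (GRCm38, as mm10). Alternatives were other pseudocounts, filters and scalings, GC removal, a limma trend and edgeR. The fits were tested on simulated data. Versions: Python 3.11.15, DESeq2 1.42.0, edgeR 4.0.16 and limma 3.58.1 in R 4.3.3.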

Additional observations from a re-analysis of the deposited data

Results flagged for a closer look

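For 19 of the 37 genes the 4OHT to ethanol ratio lay on opposite sides of 1 in the 2 cell types, with both 95% counting intervals excluding 1, as for 5.36% of all tested genes. With 1 library per combination the difference between the cell types was not tested, and such intervals cover read sampling alone, so very small differences meet this rule in abundant genes. The values below are the log2 4OHT difference in MPP2 colonies minus that in ST-HSC colonies. Among primary granule genes they were 0.40 for Mpo, 0.51 for Elane, 0.34 for Prtn3 and -0.22 for Plac8. Among secondary granule genes they were 0.72 for Ltf, 0.95 for Camp, 0.63 for Lcn2, 0.15 for Chil3, 0.43 for Chil1, 0.52 for Pglyrp1, 0.82 for Cd177, 0.72 for Itgb2l and -1.59 for Olfm4. Among late genes they were 0.47 for Padi4, 0.46 for Il1r2, 0.41 for Stfa1 and -0.17 for Anxa1, and among oxidase genes 0.49 for Cybb and 0.55 for Ncf1.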

How the results depend on the processing

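The fit pairs the treatments only through its cell type term. No pairing by replicate was possible because each group has 1 library and the labels give no replicate numbers. Leaving out a library leaves the fit no residual degrees of freedom, so this was not run either. The cell type directions of the members held under every alternative except for Il1r2, whose log2 difference of -0.02 became 0.006 with the GC trend removed; the cause was not tested. Among members, 12 instead of 20 were higher in MPP2 colonies with a pseudocount of 0.1, and with no filter 9 were higher and 2 instead of 6 lower. The shared 4OHT effect was called for 2 members, both lower, with edgeR and for 2 with a limma trend. Over all genes it was called for 5 higher and 1 lower. Both counts were 0 with a pseudocount of 0.1, no filter, scaling to library totals, DESeq2 size factors and GC trend removal. They were 73 and 19 with a pseudocount of 1, 162 and 68 with a filter at 5, 337 and 261 with a limma trend, and 281 and 211 with edgeR. Cell type calls over all genes, 1123 higher and 604 lower, went to 674 and 178 with a pseudocount of 0.1, 490 and 69 with no filter, 1899 and 1862 with a limma trend, and 1873 and 1589 with edgeR. Lower calls went to 964 with a pseudocount of 1, 1395 with a filter at 5 and 394 with DESeq2 size factors. With a filter at 5, where fewer genes are tested, 155 genes instead of 301 passed 2-fold for 4OHT in ST-HSC colonies and 162 instead of 343 in MPP2 colonies. Between cell types 461 instead of 811 passed with ethanol and 483 instead of 807 with 4OHT. Scaling to library totals moved the median of all genes to -0.10 between the 4OHT libraries. Of the members Retnlg had the fewest reads.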
